A study of Homo sapiens with 33 samples.

Results

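The homeobox genes of the 4 HOX clusters were followed across 11 high-grade serous ovarian carcinoma (HGSOC) cell lines by mRNA sequencing. Members were all genes whose symbol reads HOX, a cluster letter from A to D and a number, which gave 39 of the 29744 genes in the deposited tables: 11 in HOXA, 10 in HOXB, 9 in HOXC and 9 in HOXD. Antisense and other non-coding transcripts of the clusters were not members. The lines fall into 4 families, each from 1 patient, with 3 replicate libraries per line and 33 libraries in all.

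OVCAR3 and OVCAR4 are platinum-sensitive HGSOC lines, and OVCAR3 ResA, OVCAR3 ResB, OVCAR4 ResA and OVCAR4 ResB were selected from them by pulses of cisplatin, with ResA and ResB selected independently. PEO1 is the sensitive line of its patient, and PEO4 and PEO6 are resistant lines grown from the same patient. By the study's text PEO4 and PEO6 are thought to share a clone of origin, so they may not be independent. PEA1 and PEA2 are the sensitive and the resistant line of a further patient. The labels give each sample as a line and a replicate number, and the standing of each line as sensitive or resistant comes from the study's text. The selected lines were not kept in cisplatin, and no library is labelled with a treatment. Each resistant state is 1 line, so the replicates measure the spread of that line and not of resistance. Nothing in the labels says whether replicates were separate cultures, so p-values measure the spread between these libraries, which may be technical.

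HOX genes encode homeodomain transcription factors that give cells their position along the body axis and along the reproductive tract. They lie in each cluster in the order of their paralogue numbers, low numbers acting toward the head and high numbers toward the tail, and neighbours share chromatin that Polycomb complexes keep silent and MLL complexes keep active. In the reproductive tract HOXA9, HOXA10, HOXA11 and HOXA13 pattern the oviduct, uterus, cervix and upper vagina in that order. HOX proteins bind DNA together with cofactors of the TALE class, the PBX, MEIS and PKNOX proteins.

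On GRCh38.p14 the HOXA genes from HOXA2 to HOXA13 span chr7:27100354-27200091, HOXB members span chr17:48528526-48728750, HOXC members chr12:53938831-54056030 and HOXD members chr2:176087487-176190907, by RefSeq's gene table. The deposited counts are estimates per gene, so a value belongs to a whole gene and not to an exon or an untranslated region. HOXA3 spans HOXA4, HOXA5 and HOXA6, HOXB3 spans HOXB4, HOXD3 overlaps HOXD4, and HOXC4, HOXC5 and HOXC6 share 1 annotated start. Reads of such overlapping genes can be split uncertainly between them, and reads of the antisense genes of the clusters cannot be told apart from those of a HOX gene without strand, whose use in counting is not given in the sources used here.

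RefSeq promoter windows matched 20 of the 39 symbols, in 26 distinct windows. The 250 bases before the start are shown for 4 genes: HOXD8 and HOXD11, which moved together in the OVCAR3 and PEA families, HOXD4, a gene of the same cluster that was called in none of the 7 comparisons of a resistant with a sensitive line and could not be tested in 4 of them, and HOXA9, which was called in both directions. All are read on the gene's strand, 5′ to 3′, with every CG dinucleotide in capitals.
HOXD8, chr2:176129455-176129704, plus strand: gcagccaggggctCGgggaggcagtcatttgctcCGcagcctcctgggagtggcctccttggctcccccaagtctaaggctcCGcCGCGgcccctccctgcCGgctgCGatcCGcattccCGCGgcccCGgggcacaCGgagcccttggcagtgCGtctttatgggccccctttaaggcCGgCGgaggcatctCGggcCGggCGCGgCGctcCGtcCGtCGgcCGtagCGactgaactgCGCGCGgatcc
HOXD11, chr2:176107030-176107279, plus strand: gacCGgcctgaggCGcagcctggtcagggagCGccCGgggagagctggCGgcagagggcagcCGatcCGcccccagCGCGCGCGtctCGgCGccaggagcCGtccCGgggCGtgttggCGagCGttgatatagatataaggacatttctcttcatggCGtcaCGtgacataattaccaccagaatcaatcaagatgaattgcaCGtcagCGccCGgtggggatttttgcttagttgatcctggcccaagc
HOXD4, chr2:176151300-176151549, plus strand: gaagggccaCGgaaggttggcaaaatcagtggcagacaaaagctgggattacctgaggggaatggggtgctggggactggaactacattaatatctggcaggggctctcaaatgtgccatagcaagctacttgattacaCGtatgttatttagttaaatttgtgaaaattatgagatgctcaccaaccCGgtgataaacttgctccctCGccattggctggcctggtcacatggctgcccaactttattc
HOXA9, chr7:27165538-27165787, minus strand: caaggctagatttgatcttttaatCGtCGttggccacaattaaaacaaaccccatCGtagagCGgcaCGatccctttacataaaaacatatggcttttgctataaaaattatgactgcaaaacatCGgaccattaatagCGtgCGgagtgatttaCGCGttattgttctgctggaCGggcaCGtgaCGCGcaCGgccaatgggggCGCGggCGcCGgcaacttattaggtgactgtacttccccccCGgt

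The 250-base window of HOXD8 held 28 CG dinucleotides, that of HOXD11 held 23, that of HOXA9 held 20 and that of HOXD4 held 4. Among 34788 RefSeq promoter windows of the same length the median was 11, and 32.5% held 20 or more. The homeodomain core TAAT, searched with its reverse complement ATTA and with overlaps counted, occurred 6 times before HOXA9, 5 times before HOXD4, 2 times before HOXD11 and 0 times before HOXD8. It was present in 19 of the 26 HOX windows (73.1%) and in 47.5% of all windows. These are counts of letters, and binding was not measured.

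Depth was between 18058985 and 43394009 counts per library, of which 4218 to 17552 (median 8845) fell on HOX genes. In a library 13 to 34 members (median 28) had more than 3 counts. Levels are given as TPM, a transcript share scaled for length that allows genes to be compared, and a gene was counted as expressed in a line when its TPM was at least 1 in all 3 libraries. Mitochondrial rRNA took 1.12% to 14.8% of the counts of a library, and in the OVCAR4 family it differed between replicates, with 5.18% in OVCAR4 replicate 1 against 11.96% and 14.8% in replicates 2 and 3, and with 9.23% and 13.1% in replicate 1 of OVCAR4 ResA and OVCAR4 ResB against 2.02% to 2.47% in their replicates 2 and 3. By the correlation of log2(TPM + 1) over the 39 genes, the nearest library belonged to the same family for 33 of 33 libraries and to the same line for 31. The exceptions were the replicate 1 libraries of the OVCAR4 ResA and OVCAR4 ResB lines, each being the closest to the other (Pearson r = 0.965 across genes, which are not independent replicates).

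The HOX profile differed by cluster and by family. Of the 39 members 28 were expressed in at least 1 line. HOXB2, HOXB3, HOXB4 and HOXB7 were expressed in all 11 lines, and HOXA6, HOXA13, HOXB1, HOXC5, HOXC12, HOXD1, HOXD3, HOXD10, HOXD11, HOXD12 and HOXD13 in none. HOXD12 had 0 counts in all 33 libraries, which allows up to 3 counts per library. The highest level of the family was HOXB2 in PEO4, at 234, 232 and 350.4 TPM in replicates 1 to 3 (272 ± 67.8, SD, n = 3).

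HOXA transcripts made up most of the HOX total in the OVCAR3 family and little of it in the PEO family. In TPM, HOXA genes were 69.6% ± 1.78 (SD, n = 3) of the HOX sum in OVCAR3, 18.6% ± 2.48 in OVCAR4, 23.7% ± 0.866 in PEA1 and 2.31% ± 0.0744 in PEO1. HOXA5, a mid-cluster member, was at 64.2, 72.2 and 75.8 TPM in OVCAR3 and reached its highest mean in OVCAR3 ResA, at 57.2, 67.8 and 89.6 TPM (71.5 ± 16.5, SD, n = 3). OVCAR3 ResA and OVCAR3 overlapped in HOXA5, and so did OVCAR3 ResB at 72.2, 63.3 and 65.0 TPM. The other lines lay below all of these, with 14.5, 14.7 and 16.3 TPM in PEA2, 8.86 to 11.5 in PEA1, 2.51 to 8.43 across the OVCAR4 family and 0.289 to 0.887 across the PEO family.

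HOXB genes made up 71.5% to 75.9% of the mean HOX sum in PEA1, PEO1 and OVCAR4 and 21.6% ± 2.21 in OVCAR3 (SD, n = 3). HOXC genes took their largest share in PEO1, 23.7% ± 1.28, where HOXC10 stood at 36.1, 32.7 and 54.1 TPM (41.0 ± 11.5, SD, n = 3). That is far over the other lines, the next mean being 9.34 ± 1.62 TPM in OVCAR4 ResA. HOXD genes took at most 5.12% ± 0.905 of the sum, in PEA2, where HOXD8 was at 8.14, 10.2 and 14.3 TPM (10.9 ± 3.15). In OVCAR4 all 9 HOXD genes had 0 counts in all 3 libraries, in OVCAR4 ResB 1 library had HOXD1 at 0.0417 TPM and in OVCAR4 ResA 1 had HOXD8 at 0.171 TPM.

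**Figure D1:**
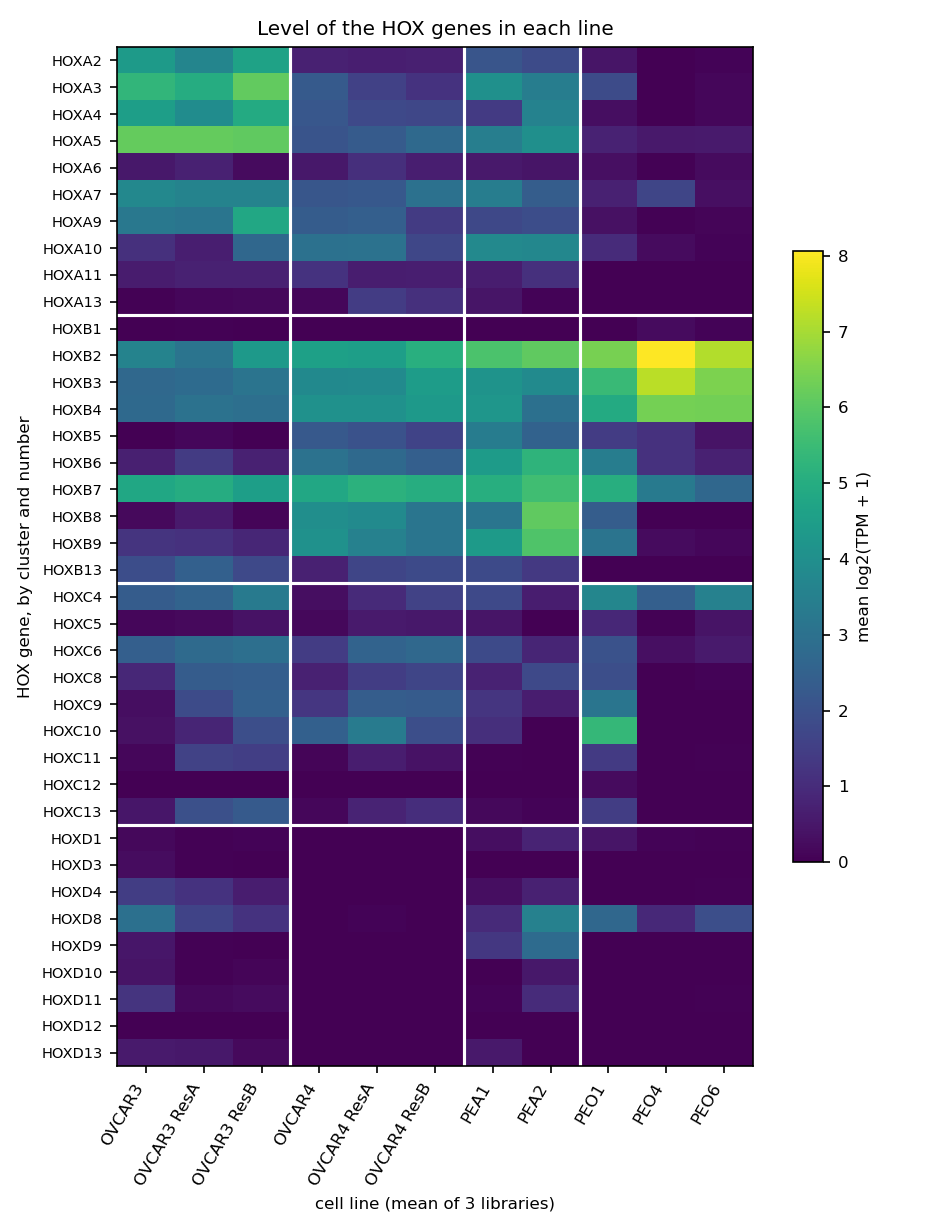
Level of 38 HOX genes (rows, by cluster and number) in the 11 lines (columns, grouped by family), as the mean over 3 libraries of log2(TPM + 1) on the colour scale. HOXA is brightest in the OVCAR3 family, HOXB2 to HOXB4 in the PEO family, and the HOXD rows are dark throughout the OVCAR4 family.

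The labelled tissue was checked against its markers. PAX8, the Mullerian transcription factor, was expressed in all 11 lines, at mean levels from 30.1 TPM in PEO1 to 203 in OVCAR3. The summed level of 8 markers of ovarian carcinoma epithelium was 2290 to 7393 TPM in the libraries of 10 lines and 405 to 447 TPM in those of PEA1, where EPCAM averaged 14.0 TPM, KRT7 2.95, CDH1 1.26 and MUC16 0.0696, against 575, 1186, 204 and 5.06 in PEA2. The 5 fibroblast markers summed to 69.6 to 116 TPM in PEA1, most of it COL1A1 at 88.4, while DCN and COL3A1 had 0 counts, and to 0.635 to 30.5 TPM elsewhere. Leukocyte markers (5 genes) summed to 0.284 to 7.27 TPM and endothelial markers (4 genes) to 0.0217 to 14.7 TPM, with PTPRC at 3.30 and CDH5 at 7.02 TPM in PEA2 and PECAM1 at 6.76 in OVCAR3 ResB. The part of these differences in the PEA comparison was not tested.

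A DESeq2 Wald test set every resistant line against its own family's sensitive line using the counts with the replicate number as a block and calling a gene at an adjusted p under 0.05 over all genes tested. A gene with too few counts gets no adjusted p. Across the 7 comparisons HOX genes were called in 102 of 209 tested combinations of gene and comparison (36 higher and 66 lower in the resistant line), which is 48.8% against 29.8% over all genes, and 64 further combinations had no adjusted p. At least 1 comparison called 33 members, and 22 of them were called higher in 1 comparison and lower in another. None was called in 1 direction in all 7. The shares of all genes with such calls over the 7 comparisons were not computed, so these counts are not set against a background. HOXA6, HOXB1, HOXC12, HOXD3, HOXD4 and HOXD12 were called in none, though HOXB1, HOXC12 and HOXD12 could be tested in none of the 7 and HOXD3 in 1. HOXD4 had no adjusted p in 4 of the 7 and HOXA6 in 2.

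**Figure D2:**
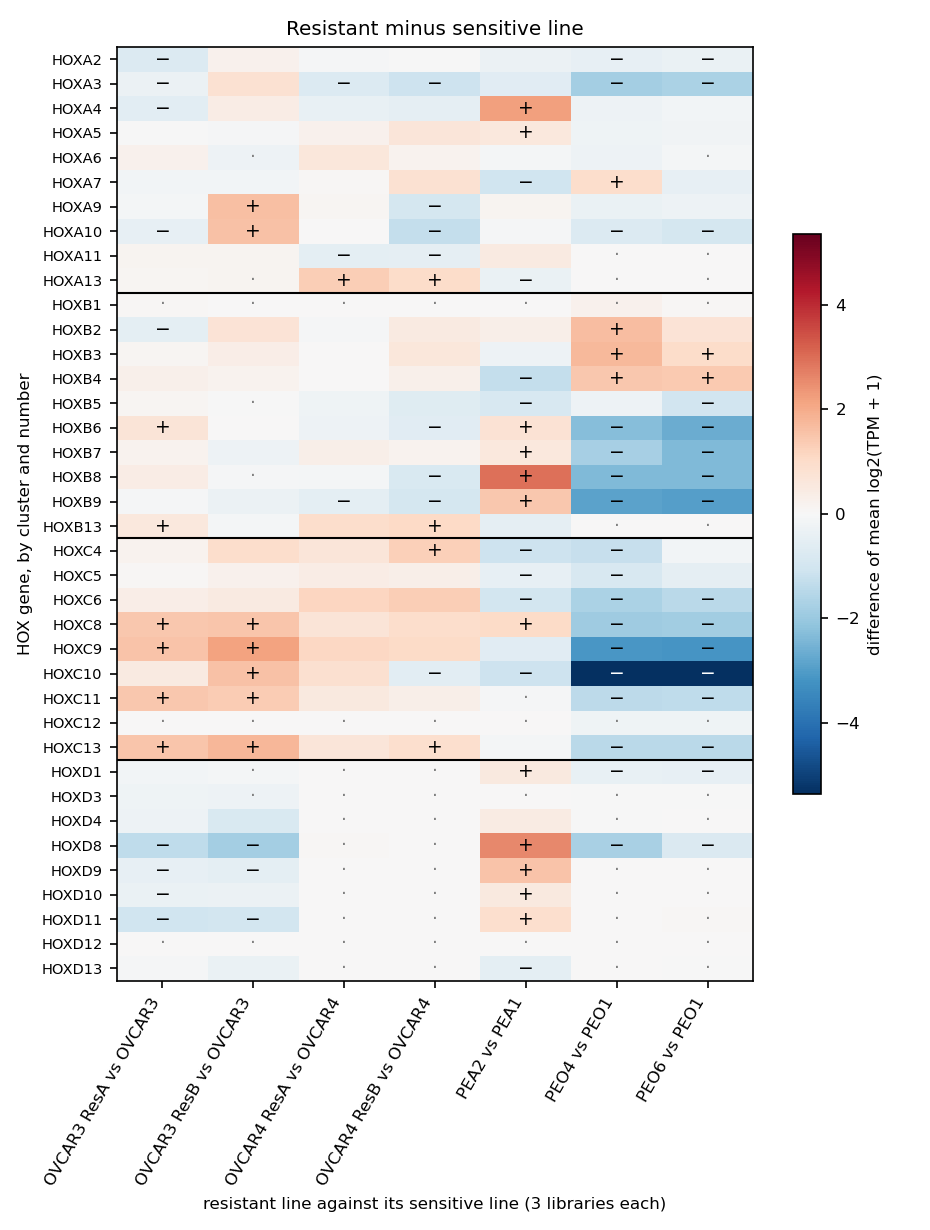
Difference of mean log2(TPM + 1) between each resistant line and the sensitive line of its family (columns) for 38 HOX genes (rows), red for higher and blue for lower in the resistant line. A plus or minus sign marks a gene called higher or lower by DESeq2 and a grey dot one with no adjusted p. On this TPM scale the median of all genes is shifted by 0.44 and 0.47 log2 units in the OVCAR4 ResA and OVCAR4 ResB columns. The PEO columns are mostly blue except HOXB2 to HOXB4, and HOXC8, HOXC9, HOXC11 and HOXC13 are red in the OVCAR3 columns.

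In the PEO family, HOXB3 and HOXB4 rose in both resistant lines, and most other called members fell. PEO4 differed from PEO1 in 22 of 27 tested members, 4 higher and 18 lower, where all genes gave 33.3% called, 16.6% of them higher and 16.7% lower. PEO6 differed from PEO1 in 18 of 26, 2 higher and 16 lower, against 41.4% of all genes, 21.2% higher and 20.3% lower. Both comparisons use the same PEO1 libraries. The median log2 fold change of the tested members was −3.20 in PEO4 (−2.93 with genes at 0 set to their bound) and −2.62 in PEO6, and over all genes 0.01 and 0.02. The 8 epithelial markers summed to 4607 ± 757 TPM in PEO1, 3179.5 ± 133 in PEO4 and 3747 ± 825 in PEO6 (SD, n = 3), PEO4 lying below PEO1 without overlap, and their part in these counts was not tested.

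HOXB2, HOXB3 and HOXB4, anterior members of the cluster, had the highest mean levels of all HOX genes in PEO4 and PEO6, whereas in PEO1 HOXB4 stood below HOXC10 and HOXB7. HOXB2 was at 85.9, 64.8 and 109.7 TPM in PEO1 against 234, 232 and 350.4 in PEO4 (log2 fold change 1.61 ± 0.17 SE, adjusted p = 9.5e-20). In PEO6 it was at 133, 181 and 116 TPM. All 6 resistant libraries lay above PEO1, but PEO6 was not called against PEO1 for HOXB2. HOXB3 was at 45.6, 35.9 and 50.3 TPM in PEO1, at 137, 121 and 194 in PEO4 (log2 fold change 1.79 ± 0.18 SE, adjusted p = 4.31e-21) and at 93.7, 108 and 67.0 in PEO6 (1.03 ± 0.25 SE, adjusted p = 0.000287, but 0.0606 without replicate 2). HOXB4 was at 30.0, 27.2 and 32.2 TPM in PEO1, 81.9, 74.1 and 92.3 in PEO4 (1.51 ± 0.18 SE, adjusted p = 3.41e-15) and 82.8, 94.9 and 66.3 in PEO6 (1.42 ± 0.24 SE, adjusted p = 4.06e-08). Neither HOXB3 nor HOXB4 overlapped between PEO1 and a resistant line. Summed over the 3 genes the level was 161 ± 32.1 TPM in PEO1, 506 ± 114 in PEO4 and 314 ± 67.6 in PEO6 (SD, n = 3).

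The next genes of the same cluster went the other way, an arrangement noticed after the values were seen and given as a description. HOXB5 to HOXB9 summed to 56.5 ± 10.8 TPM in PEO1, 11.8 ± 3.06 in PEO4 and 6.70 ± 1.39 in PEO6 (SD, n = 3). HOXB9, the member of this block farthest from HOXB4, was at 6.86, 5.99 and 10.8 TPM in PEO1, 0.198, 0.164 and 0.183 in PEO4 and 0.114, 0.103 and 0.125 in PEO6 (log2 fold changes −5.37 ± 0.41 SE and −6.10 ± 0.48 SE, adjusted p = 6.09e-37 and 6.2e-35). HOXB8 was at 4.68, 2.82 and 5.50 TPM in PEO1, with 1 count over the 3 PEO4 libraries and 0 in PEO6, at least 49.0-fold lower there against a floor of 3 counts per library. Its DESeq2 call in PEO6 was lost with any replicate number left out (adjusted p = 0.0546 to 0.0589). The log2 fold change stayed at −9.44 to −9.80 in these omissions, and edgeR with all replicates gave an adjusted p of 2.06e-36. HOXB6 and HOXB7 fell in both lines, with HOXB7 still expressed at 6.64, 8.11 and 12.7 TPM in PEO4 and 4.66, 7.47 and 4.57 in PEO6. HOXB5 fell in PEO6, from 1.68, 1.65 and 1.75 to 0.35, 0.188 and 0.51 TPM (−2.37 ± 0.66 SE, adjusted p = 0.00142, but 0.153 without replicate 2). In PEO4 it stood at 1.30, 1.22 and 1.16 TPM, with no call. On the chromosome HOXB4 ends at chr17:48578350 and HOXB5 begins at chr17:48591257, with MIR10A between them.

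HOXC8 to HOXC13 were at or near 0 in both resistant PEO lines. All 8 tested HOXC genes fell in PEO4 and 6 of 8 fell in PEO6, where 20.3% of all genes were called lower. HOXC10, a posterior member, had 0 counts in all 3 PEO4 libraries, at least 374-fold lower than in PEO1, and 1 count over the PEO6 libraries (ratio 0.000228, 95% exact counting interval 5.77e-06 to 0.00127). HOXC9 was at 6.93, 6.74 and 10.4 TPM in PEO1, at 0, 0 and 0.0481 in PEO4 and at 0 in all PEO6 libraries, at least 72.8-fold lower in PEO6. HOXC8, HOXC11 and HOXC13 fell in both lines from means of 2.89, 1.62 and 1.80 TPM to 0.0561 or less, although the HOXC11 call in PEO4 was lost with any replicate left out (adjusted p = 0.0942 to 0.177). The HOXC11 log2 fold change stayed at −7.81 to −8.25 in these omissions, and edgeR with all replicates gave an adjusted p of 2.66e-05. HOXC8 to HOXC13 without HOXC12 summed to 55.3 ± 13.7 TPM in PEO1, 0.0540 ± 0.0104 in PEO4 and 0.109 ± 0.103 in PEO6 (SD, n = 3). These counting intervals and floors cover counting error only.

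At the other end of that cluster HOXC4 kept a level. It was at 12.3, 9.50 and 14.4 TPM in PEO1, 4.07, 3.98 and 5.52 in PEO4 and 9.36, 11.7 and 10.8 in PEO6. PEO4 lay below both others without overlap (log2 fold change −1.38 ± 0.26 SE against PEO1, adjusted p = 1.02e-06), while PEO6 overlapped PEO1 and was not called. Between the resistant lines HOXC4 was higher in PEO6 (1.19 ± 0.38 SE, adjusted p = 0.0146). HOXC5 and HOXC6, which share its annotated start, averaged 0.895 and 3.12 TPM in PEO1, 0.0318 and 0.266 in PEO4 and 0.346 and 0.508 in PEO6. Against PEO1, HOXC6 was called lower in PEO6 too (adjusted p = 9.0e-06, held in every omission of a replicate), while HOXC5 was not called there.

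**Figure D3:**
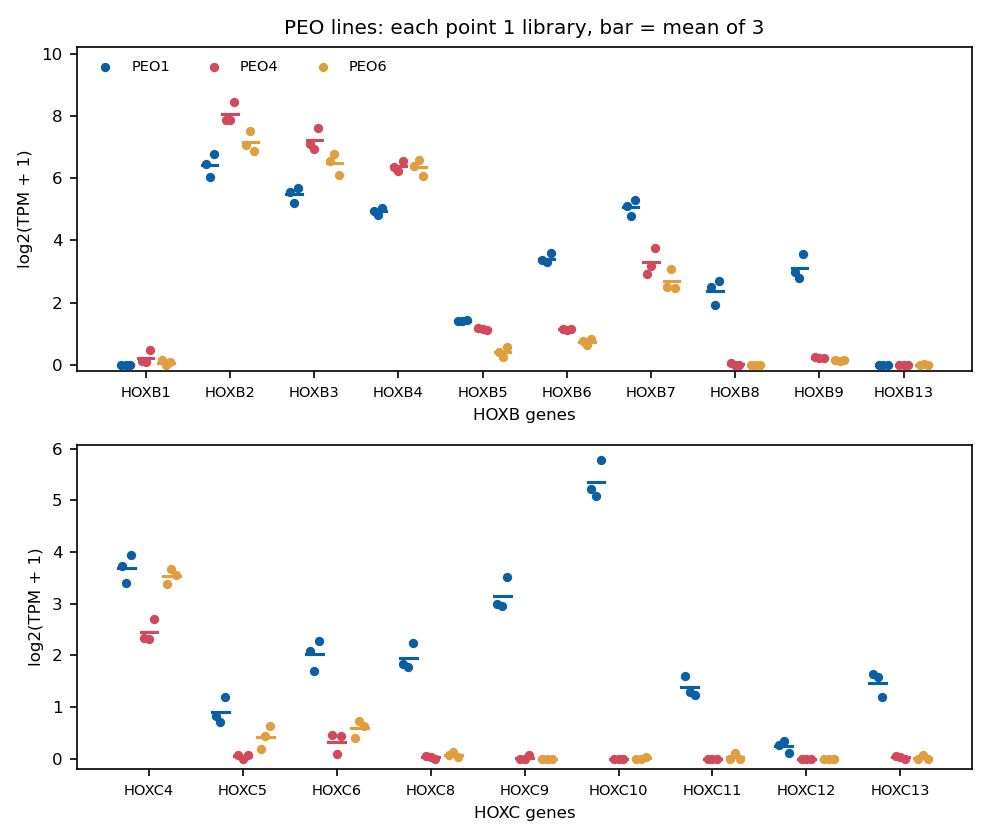
Level of each HOXB gene (upper panel) and HOXC gene (lower panel) in PEO1, PEO4 and PEO6 as log2(TPM + 1), with 1 point per library and a bar at the mean of 3. HOXB2 to HOXB4 lie higher in both resistant lines, HOXB6 to HOXB9 lower, and HOXC8 to HOXC13 lie at or near 0 in both, with HOXC4 retained.

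Of the HOXA genes 4 of 9 tested were called lower in PEO4 and 3 of 8 in PEO6, where 16.7% and 20.3% of all genes were. HOXA3 was at 2.85, 1.68 and 3.58 TPM in PEO1, had 1 count over the PEO4 libraries (ratio 0.00262, 95% exact counting interval 6.63e-05 to 0.0147) and was at 0, 0.363 and 0.0175 TPM in PEO6. It fell in both (adjusted p = 1.84e-10 and 0.000611), but its call was lost without replicate 1 in PEO4 (adjusted p = 0.0872) and without replicate 3 in PEO6 (0.0942). Replicate 1 held the only HOXA3 count of PEO4, and the log2 fold change without it was −9.40. Without replicate 3 the fold change in PEO6 was −5.97. With all replicates edgeR gave adjusted p = 2.12e-07 in PEO4 and 4.37e-23 in PEO6. HOXA7 was called higher in PEO4, at 0.828, 0.467 and 0.751 TPM in PEO1 and 2.09, 2.13 and 2.51 in PEO4 (1.79 ± 0.46 SE, adjusted p = 0.000606, but 0.0831 without replicate 2), and it was at 0.182, 0.309 and 0.257 in PEO6, lower than in PEO4 (−3.25 ± 0.63 SE, adjusted p = 6.73e-06). HOXD8 was at 5.78, 6.39 and 4.32 TPM in PEO1, 0.598, 1.02 and 1.17 in PEO4 (−2.61 ± 0.41 SE, adjusted p = 4.21e-09) and 3.65, 3.53 and 1.58 in PEO6 (−0.93 ± 0.37 SE, adjusted p = 0.0307, lost with any replicate left out at 0.0933 to 0.293). Between the resistant PEO lines 4 of 16 tested members were called, HOXC4 and HOXD8 higher and HOXA7 and HOXB2 lower in PEO6, against 18.2% of all genes (9.86% higher, 8.33% lower). Of these the HOXB2 call was lost without replicate 1 or 2 (adjusted p = 0.0847 and 0.106), those of HOXC4 and HOXD8 likewise (0.285 to 0.592), and that of HOXA7 held in every omission. With replicate numbers left out in turn, 15 to 18 members were called in PEO4 and 12 to 14 in PEO6 against PEO1.

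In the OVCAR3 family HOXC8, HOXC9, HOXC11 and HOXC13 rose and HOXD8, HOXD9 and HOXD11 fell in both selected lines. OVCAR3 ResA differed from OVCAR3 in 15 of 36 tested members, 6 higher and 9 lower, against 44.9% of all genes called (22% higher, 22.9% lower), and OVCAR3 ResB in 10 of 30, 7 higher and 3 lower, against 7.67% (4.1% higher, 3.57% lower). The share in OVCAR3 ResA was near its background, 41.7% of tested members. Both use the same OVCAR3 libraries. With limma on log2(TPM + 1) for genes of at least 1 TPM in 3 libraries, the split was 7 higher and 5 lower in OVCAR3 ResA and 6 higher and 1 lower in OVCAR3 ResB. The 8 epithelial markers summed to 6511 ± 939 TPM in OVCAR3, 2835 ± 323 in OVCAR3 ResA and 5737 ± 578 in OVCAR3 ResB (SD, n = 3), so that OVCAR3 ResA did not overlap OVCAR3, and 5 of the 8 were called lower and 2 higher in OVCAR3 ResA. Their part in the HOX counts was not tested.

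HOXC9 was at 0.0991, 0.142 and 0.524 TPM in OVCAR3, at 1.63, 2.92 and 3.36 in OVCAR3 ResA (log2 fold change 3.42 ± 0.60 SE, adjusted p = 1.18e-07) and at 3.77, 9.24 and 2.50 in OVCAR3 ResB (4.34 ± 0.78 SE, adjusted p = 1.81e-06). HOXC11 was at 0.122, 0.07 and 0.106 TPM in OVCAR3, 2.59, 1.66 and 1.77 in OVCAR3 ResA (4.21 ± 0.66 SE, adjusted p = 1.91e-09) and 2.13, 1.42 and 1.91 in OVCAR3 ResB (4.10 ± 0.84 SE, adjusted p = 4.89e-05). HOXC13, the last member of the cluster, was at 0.633, 0.265 and 0.356 TPM in OVCAR3, 3.67, 2.72 and 2.50 in OVCAR3 ResA (2.73 ± 0.40 SE, adjusted p = 1.52e-10) and 2.47, 2.76 and 7.72 in OVCAR3 ResB (3.12 ± 0.58 SE, adjusted p = 3.36e-06). In all 3 genes the 6 resistant libraries lay above the 3 parental ones. HOXC8 rose in both lines as well, from a mean of 0.892 TPM to 4.20 and 4.46. HOXC10 was at 0.228, 0.329 and 0.294 TPM in OVCAR3 and 3.89, 2.54 and 2.20 in OVCAR3 ResB (3.22 ± 0.67 SE, adjusted p = 5.64e-05). In OVCAR3 ResA it was at 0.803, 0.456 and 1.16 TPM, above OVCAR3 without overlap but not called. Set against OVCAR3 ResA it was called higher in OVCAR3 ResB (adjusted p = 0.0227). That call was lost without replicate 1 or 2 (0.415 and 0.619) and by edgeR (0.0653). The anterior HOXC4, HOXC5 and HOXC6 were not called in either line.

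Leaving out a replicate number weakened the OVCAR3 ResB calls. The HOXC9 call there was lost without replicate 2 (adjusted p = 0.0901), that of HOXC10 without replicate 1 (0.108) and that of HOXC8 without replicate 1 or 2 (0.241 and 0.436), while those of HOXC11 and HOXC13 held in every omission. In OVCAR3 ResA the HOXC calls held in every omission. The HOX count was 9, 11 and 9 without replicates 1, 2 and 3 in OVCAR3 ResA, and 4, 4 and 11 in OVCAR3 ResB.

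Of the HOXD genes 4 of 8 tested were called lower in OVCAR3 ResA and 3 of 6 in OVCAR3 ResB, where 22.9% and 3.57% of all genes were, and none was called higher in either line. HOXD8 was at 7.47, 7.17 and 6.22 TPM in OVCAR3, 2.34, 1.82 and 2.19 in OVCAR3 ResA (log2 fold change −1.84 ± 0.27 SE, adjusted p = 8.66e-11) and 2.29, 0.905 and 0.809 in OVCAR3 ResB (−2.53 ± 0.51 SE, adjusted p = 3.38e-05, but 0.0541 without replicate 2). HOXD11 was at 0.797, 1.54 and 1.78 TPM in OVCAR3, 0.0889, 0.167 and 0.123 in OVCAR3 ResA (−3.76 ± 0.76 SE, adjusted p = 4.4e-06) and 0.135, 0.181 and 0.196 in OVCAR3 ResB (−2.91 ± 0.90 SE, adjusted p = 0.0211, lost with any replicate left out at 0.16 to 0.361). The groups of OVCAR3 and of each selected line did not overlap in either gene. HOXD9 fell too, from a mean of 0.427 TPM to 0.0422 in OVCAR3 ResA and to 0 counts in OVCAR3 ResB, at least 3.63-fold lower there, but its OVCAR3 ResA call was lost without replicate 1 or 3 (adjusted p = 0.0811 and 0.157) and its OVCAR3 ResB call in every omission (adjusted p = 0.146 without replicate 1 and no adjusted p without replicate 2 or 3). HOXD4, whose promoter is shown above, was at 1.98, 1.56 and 1.81 TPM in OVCAR3, 1.19, 1.51 and 1.149 in OVCAR3 ResA and 0.464, 0.714 and 0.563 in OVCAR3 ResB, without a call. Both selected lines lay below OVCAR3 in HOXD4 without overlap. HOXD4 to HOXD11 summed to 10.9 ± 0.222, 3.60 ± 0.124 and 2.16 ± 0.710 TPM in the 3 lines (SD, n = 3).

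**Figure D4:**
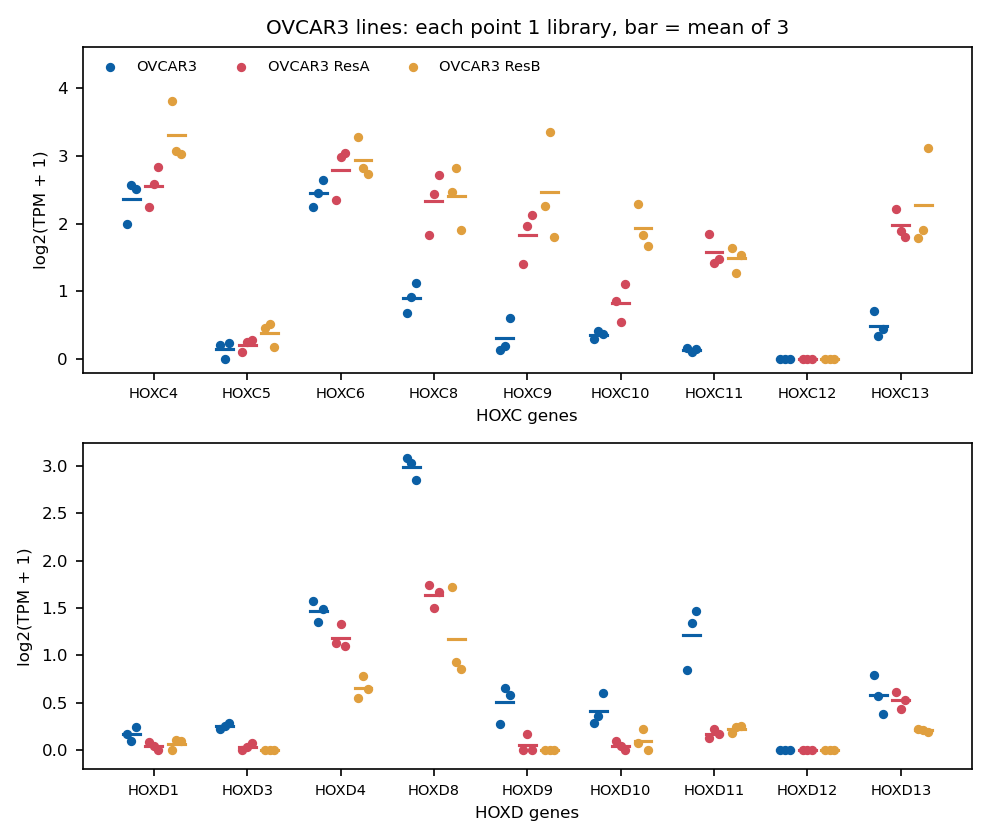
Level of each HOXC gene (upper panel) and HOXD gene (lower panel) in OVCAR3, OVCAR3 ResA and OVCAR3 ResB as log2(TPM + 1), with 1 point per library and a bar at the mean of 3. The points of both selected lines lie above OVCAR3 for HOXC8, HOXC9, HOXC11 and HOXC13, and below it for HOXD8 and HOXD11.

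Of 10 tested HOXA genes 3 were called higher in OVCAR3 ResB than in OVCAR3 ResA. HOXA10, the uterine member, was at 0.971, 1.16 and 1.41 TPM in OVCAR3, 0.227, 0.734 and 0.87 in OVCAR3 ResA (log2 fold change −1.24 ± 0.51 SE, adjusted p = 0.0381, 0.147 to 0.451 with any replicate left out) and 5.25, 6.13 and 4.95 in OVCAR3 ResB (2.13 ± 0.48 SE, adjusted p = 0.00033, but 0.0937 and 0.211 without replicates 1 and 2). Set against each other, OVCAR3 ResB was higher than OVCAR3 ResA by 3.35 ± 0.56 SE on the log2 scale (adjusted p = 9e-08). HOXA9, the oviduct member, was at 8.47, 10.0 and 6.76 TPM in OVCAR3, 7.83, 8.22 and 7.30 in OVCAR3 ResA, without a call, and 52.7, 15.2 and 25.0 in OVCAR3 ResB (1.59 ± 0.41 SE, adjusted p = 0.00281, but 0.356 without replicate 1). HOXA9 was also higher in OVCAR3 ResB than in OVCAR3 ResA (1.82 ± 0.41 SE, adjusted p = 0.000224, but 0.114 without replicate 1). HOXA2, HOXA3 and HOXA4 fell in OVCAR3 ResA, by 0.91, 0.49 and 0.76 on the log2 scale, with HOXA3 overlapping OVCAR3 in TPM. These calls held in every omission of a replicate. In 1 DESeq2 fit of all 33 libraries they were lost (adjusted p = 0.173, 0.615 and 0.146), and that of HOXA3 also without the replicate block (0.399). In the direct comparison 5 of 29 tested members were called, all higher in OVCAR3 ResB, against 13.5% of all genes (7.47% higher, 6.04% lower), and without replicates 1, 2 and 3 there were 1, 2 and 9.

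In the PEA family HOXB6, HOXB8, HOXB9 and HOXD8 rose and HOXC10 fell. PEA2 differed from PEA1 in 21 of 34 tested members, 12 higher and 9 lower, against 47% of all genes (23.3% higher, 23.8% lower). By cluster 4 of 9 tested HOXB genes were called higher and 2 lower, 5 of 7 HOXD genes higher and 1 lower, and 1 of 7 HOXC genes higher and 4 lower. Of 11 tested HOXA genes 2 were called higher and 2 lower, which is 36.4% and below the share of all genes. The median log2 fold change was 0.07 for the tested HOXA genes, 0.45 for HOXB, 2.16 for HOXD and −1.44 for HOXC, and −0.02 for all genes. With replicates 1, 2 and 3 left out, 8, 12 and 13 members were called. Epithelial markers summed to 429 ± 21.9 TPM in PEA1 and 3744 ± 119 in PEA2 and fibroblast markers to 94.97 ± 23.5 and 0.892 ± 0.243 (SD, n = 3), and their part in these counts was not tested. In such bulk libraries fewer cells of a kind and less RNA per cell cannot be told apart.

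HOXB8 was at 6.81, 7.91 and 8.89 TPM in PEA1 and 73.5, 71.9 and 59.1 in PEA2 (log2 fold change 3.27 ± 0.24 SE, adjusted p = 7.14e-40). HOXB9 was at 23.7, 16.3 and 21.3 TPM in PEA1 and 52.5, 52.0 and 67.0 in PEA2 (1.61 ± 0.25 SE, adjusted p = 7.43e-10). HOXB6 rose likewise, from 18.9, 23.7 and 19.8 to 35.6, 40.5 and 33.8 TPM (1.21 ± 0.24 SE, adjusted p = 4.42e-06). No library of PEA1 reached the lowest of PEA2 in these 3 genes. HOXB4 was at 16.7, 17.4 and 19.3 TPM in PEA1 and 6.86, 7.74 and 5.96 in PEA2 (−1.26 ± 0.26 SE, adjusted p = 6.1e-06), and HOXB5 fell by 0.89 ± 0.30 SE (adjusted p = 0.00874, but 0.0991 to 0.198 with any replicate left out). HOXB2, HOXB3 and HOXB13 were not called, HOXB13 being at a mean of 2.55 TPM in PEA1 and 1.51 in PEA2. HOXB2 to HOXB4 thus summed to 88.6 ± 8.11 and 87.8 ± 12.4 TPM in PEA1 and PEA2, and HOXB5 to HOXB9 to 92.4 ± 12.8 and 214 ± 6.46 (SD, n = 3).

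HOXD8 was at 1.001, 0.897 and 0.943 TPM in PEA1 and 8.14, 10.2 and 14.3 in PEA2 (log2 fold change 3.66 ± 0.37 SE, adjusted p = 2.78e-22). HOXD11 was at 0.0382, 0.0379 and 0.108 TPM in PEA1 and 1.151, 1.03 and 0.827 in PEA2 (4.37 ± 1.11 SE, adjusted p = 0.000303, but 0.0984 without replicate 1). HOXD9 rose from a mean of 1.49 to 6.10 TPM, and HOXD10 had 0 counts in PEA1 and was at least 4.73-fold higher in PEA2, though its call was lost without replicate 1 or 2 (adjusted p = 0.128 and 0.0617). HOXD13, the last gene of the cluster, went the other way, from 0.482, 0.344 and 0.55 TPM to 2 counts over the PEA2 libraries, a call lost without replicate 1 or 2 (adjusted p = 0.109 in both).

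HOXC10 was at 1.27, 1.16 and 1.01 TPM in PEA1 and had 1 count over the 3 PEA2 libraries (ratio 0.00863, 95% exact counting interval 0.000217 to 0.0490, adjusted p = 7.04e-06). HOXC4 was at 2.81, 2.70 and 1.86 TPM in PEA1 and 0.957, 0.53 and 0.308 in PEA2 (log2 fold change −1.87 ± 0.55 SE, adjusted p = 0.00222), and HOXC6 at 2.92, 3.14 and 1.66 against 1.08, 0.81 and 0.51 (−1.44 ± 0.52 SE, adjusted p = 0.0146). The calls of HOXC4 and HOXC6 were lost without replicate 1 (adjusted p = 0.147 and 0.298) or replicate 2 (0.202 and 0.369), and that of HOXC6 without replicate 3 (0.0552). HOXC8 was called higher in PEA2, at 2.13, 2.45 and 2.71 against 0.654, 0.957 and 0.527 TPM, a call lost without replicate 1 or 3 (adjusted p = 0.0799 and 0.0692). In HOXA, HOXA4 rose from 1.49, 2.03 and 1.30 to 10.5, 11.3 and 10.7 TPM (2.89 ± 0.35 SE, adjusted p = 5.05e-15), while HOXA10 stood at 13.2, 13.5 and 12.1 in PEA1 and 12.9, 12.2 and 11.4 in PEA2 without a call. HOXA7 fell from 9.22, 10.2 and 9.97 to 3.96, 4.43 and 4.15 TPM (adjusted p = 0.000715, but 0.118 and 0.0809 without replicates 1 and 2).

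**Figure D5:**
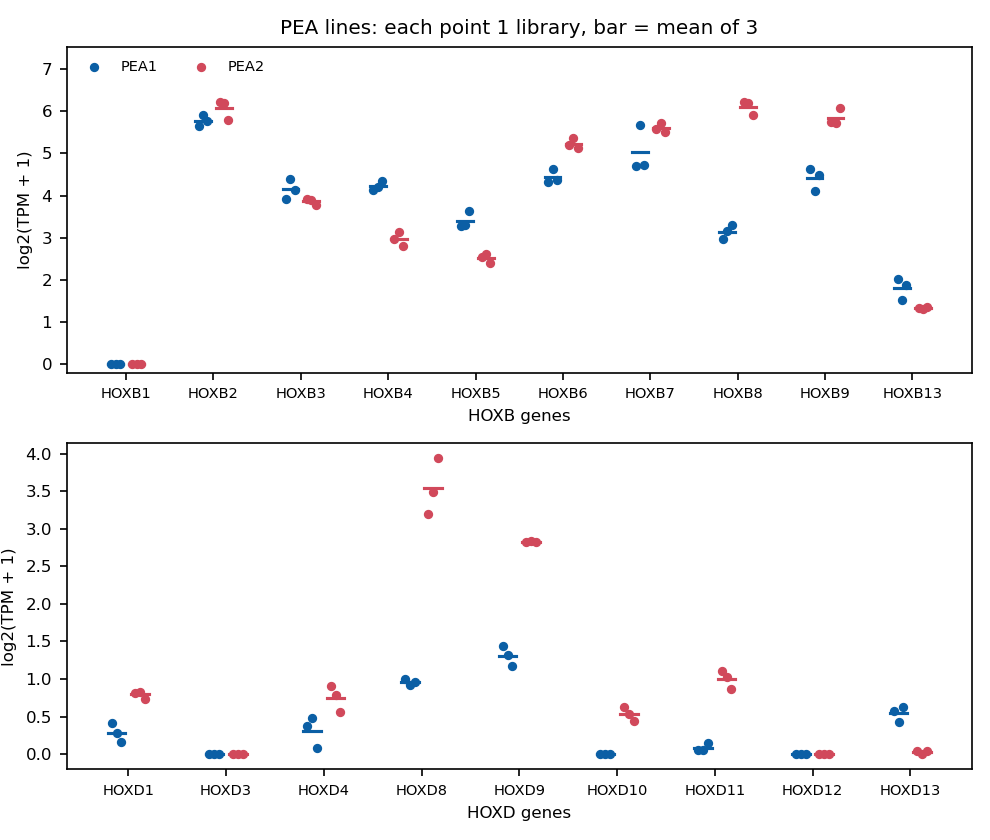
Level of each HOXB gene (upper panel) and HOXD gene (lower panel) in PEA1 and PEA2 as log2(TPM + 1), with 1 point per library and a bar at the mean of 3. HOXB6, HOXB8 and HOXB9 and HOXD8 to HOXD11 lie higher in PEA2, and HOXB4, HOXB5 and HOXD13 lower.

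In the OVCAR4 family the number of members called changed with the replicates that entered. OVCAR4 ResA differed from OVCAR4 in 4 of 28 tested members, 1 higher and 3 lower, against 11.9% of all genes (6.68% higher, 5.22% lower), and OVCAR4 ResB in 12 of 28, 4 higher and 8 lower, against 17.9% (9.09% higher, 8.77% lower). Both use the same OVCAR4 libraries. Without replicate 1 the counts were 14 and 16, without replicate 2 they were 0 and 0, and without replicate 3 they were 0 and 1. edgeR's quasi-likelihood test called 1 and 3, and the shares of mitochondrial rRNA given above differ between the replicates of these lines. Same-numbered libraries of OVCAR4 and a selected line deviated in opposite directions (r = −0.606 to −0.226 across genes for OVCAR4 ResA, −0.584 to −0.131 for OVCAR4 ResB). Without the replicate block the OVCAR4 ResA calls were kept (adjusted p = 1.83e-06 to 0.00354). Of the OVCAR4 ResB calls that of HOXA9 alone was lost (0.188). The 8 epithelial markers summed to 2604 ± 232 TPM in OVCAR4, 3336 ± 187 in OVCAR4 ResA, which lay above OVCAR4 without overlap, and 2746 ± 405 in OVCAR4 ResB (SD, n = 3). The part of the rRNA share and of these markers in the counts was not tested.

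HOXA13, the most posterior HOXA gene, was at 0.126, 0.0575 and 0.124 TPM in OVCAR4, 0.952, 1.84 and 2.64 in OVCAR4 ResA (log2 fold change 3.53 ± 0.81 SE, adjusted p = 0.000365, but 0.126 and 0.24 without replicates 2 and 3) and 0.355, 1.92 and 1.58 in OVCAR4 ResB (2.78 ± 0.89 SE, adjusted p = 0.0139, but 0.561 and 0.441). All 6 libraries of the selected lines lay above OVCAR4. HOXA3 was at 2.97, 4.48 and 4.22 TPM in OVCAR4, 2.68, 1.57 and 1.65 in OVCAR4 ResA (−1.50 ± 0.51 SE, adjusted p = 0.0323) and 2.09, 0.823 and 1.08 in OVCAR4 ResB (−2.19 ± 0.57 SE, adjusted p = 0.00173), and both calls were lost without replicate 2 or 3 (adjusted p = 0.22 to 0.786). HOXA11, the cervical member, was at 1.51, 1.03 and 1.29 TPM in OVCAR4 and 0.45, 0.47 and 0.84 in OVCAR4 ResA (−1.69 ± 0.61 SE, adjusted p = 0.0499, lost with any replicate left out at 0.0543 to 0.734). HOXB9 was at 18.3, 15.0 and 14.8 TPM in OVCAR4, 8.18, 10.7 and 13.8 in OVCAR4 ResA (−1.11 ± 0.32 SE, adjusted p = 0.00787, but 0.456 and 0.39 without replicates 2 and 3) and 5.30, 8.51 and 10.1 in OVCAR4 ResB (−1.62 ± 0.33 SE, adjusted p = 1.86e-05, but 0.057 without replicate 2).

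HOXA9 and HOXA10 were also called lower in OVCAR4 ResB. HOXA10 was at 7.46, 7.002 and 6.78 TPM in OVCAR4, 8.88, 5.28 and 7.71 in OVCAR4 ResA and 3.29, 1.62 and 2.23 in OVCAR4 ResB (log2 fold change −2.14 ± 0.47 SE against OVCAR4, adjusted p = 8.79e-05, but 0.0995 and 0.0705 without replicates 2 and 3). It was lower than in OVCAR4 ResA too (−1.63 ± 0.26 SE, adjusted p = 5.62e-09), a call that held in every omission. HOXA9 was at 5.50, 3.38 and 3.72 TPM in OVCAR4 and 4.84, 0.946 and 0.632 in OVCAR4 ResB, overlapping groups (−2.12 ± 0.64 SE, adjusted p = 0.00882, but 0.296 and 0.508 without replicates 2 and 3, and 0.188 without the replicate block). HOXC4 rose in OVCAR4 ResB from 0.459, 0.178 and 0.116 to 2.76, 1.73 and 1.74 TPM (2.67 ± 0.76 SE, adjusted p = 0.00463, but 0.179 and 0.328 without replicates 2 and 3), and HOXC13 from 0.0886, 0.242 and 0.0261 to 0.476, 1.42 and 1.49 (2.80 ± 0.95 SE, adjusted p = 0.0235, but 0.233 and 0.683). HOXC10 fell in OVCAR4 ResB to 2.53, 2.74 and 3.30 TPM from 4.70, 4.79 and 4.33 (adjusted p = 0.0223, but 0.575 and 0.496 without replicates 2 and 3) and was lower than the 7.51, 9.92 and 10.6 of OVCAR4 ResA (−1.75 ± 0.25 SE, adjusted p = 1.29e-10). Between the selected lines 8 of 28 tested members were called, 3 higher and 5 lower in OVCAR4 ResB, against 32.8% of all genes (16.2% higher, 16.5% lower). Their same-numbered libraries deviated together (r = 0.710 to 0.832 across genes), and 3 members, 1 higher and 2 lower, were called without the replicate block. HOXA7 was called higher in OVCAR4 ResB in the blocked fit, at 8.199, 6.30 and 6.66 against 3.35, 3.49 and 4.22 TPM (0.90 ± 0.28 SE, adjusted p = 0.00622, but 0.0644 to 0.164 with any replicate left out), and HOXB3 at 27.8, 17.7 and 18.3 against 24.4, 9.42 and 10.4 (0.57 ± 0.16 SE, adjusted p = 0.00245, but 0.262 and 0.0914 without replicates 2 and 3). Without replicates 1, 2 and 3 the counts between the selected lines were 5, 3 and 4.

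Taking the line as the unit, with counts summed over the replicates of each of the 11 lines and the family as a covariate, 1 of 38 tested members differed between the 7 resistant and 4 sensitive lines, against 0.286% of all genes. That was HOXC10 (log2 fold change −6.57 ± 1.71 SE, adjusted p = 0.0452), lower in the PEO4, PEO6 and PEA2 comparisons and in OVCAR4 ResB, not called in OVCAR4 ResA or OVCAR3 ResA and called higher in OVCAR3 ResB. In TPM HOXC10 also lay above the sensitive line without overlap in OVCAR4 ResA and OVCAR3 ResA. The median of all genes was shifted by 0.44 log2 units on that scale in OVCAR4 ResA. It was not called without the PEA family, without replicate 1 or 3, or by edgeR. PEO4 and PEO6, which may not be independent, entered as separate lines. HOXA2, HOXA3, HOXB9 and HOXC11 had an unadjusted p under 0.05 and no call. HOXA3 was the member called in 1 direction most often, lower in 5 of the 7 comparisons and in 3 families. It was not called in PEA2 or in OVCAR3 ResB. In OVCAR3 ResB it lay above OVCAR3 without overlap, at 82.9, 67.7 and 56.7 against 26.7, 45.2 and 47.8 TPM. A test of the difference between families itself, a likelihood ratio test of family by resistance over the 33 libraries, called 26 of 35 tested members, against 53.6% of all genes. Its units are libraries and not lines.

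The sensitive lines of different patients were compared as well. Against OVCAR3, 27 of 36 tested members were called in OVCAR4 (54.5% of all genes), 23 of 36 in PEA1 (52.8%) and 29 of 35 in PEO1 (58%). Against OVCAR4, 17 of 33 were called in PEA1 (52.3%) and 24 of 30 in PEO1 (59.5%), and PEO1 differed from PEA1 in 27 of 36 (42.6%). With a replicate number left out the count was 6 to 10 for PEA1 against OVCAR4, 17 to 21 for OVCAR4 against OVCAR3 (27 with all) and 15 to 17 for PEA1 against OVCAR3 (23 with all). PEO1 against OVCAR3 called 0 HOXA genes higher and 8 of 10 tested lower, 7 of 9 HOXB and 7 of 8 HOXC genes higher, and 6 of 8 HOXD genes lower, where 28.7% of all genes were called higher and 29.3% lower.

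HOX proteins act with TALE cofactors, and these were called in 25 of 54 tested combinations over the 7 comparisons (13 higher, 12 lower), 46.3% against 29.8% of all genes. MEIS1 was at 44.6, 30.5 and 38.9 TPM in PEO1, 135, 121 and 131 in PEO4 (log2 fold change 1.72 ± 0.17 SE, adjusted p = 8.57e-23) and 146, 176 and 131 in PEO6 (1.85 ± 0.22 SE, adjusted p = 2.88e-15). It fell from 7.46, 7.57 and 8.38 TPM in PEA1 to 1.65, 1.99 and 2.41 in PEA2 (−1.72 ± 0.31 SE, adjusted p = 1.77e-07) and from 48.4, 44.1 and 47.0 in OVCAR3 to 15.9, 19.98 and 15.3 in OVCAR3 ResA (−1.53 ± 0.13 SE, adjusted p = 1.7e-31). PBX2 rose in both resistant PEO lines by 1.16 ± 0.17 SE and 1.48 ± 0.23 SE on the log2 scale and fell in both selected OVCAR4 lines, by 0.90 and 0.98.

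Of the chromatin regulators of the clusters, Polycomb subunits were called in 41 of 126 tested combinations (20 higher, 21 lower), 32.5% against 29.8% of all genes, and MLL and trithorax-side factors in 18 of 77 (8 higher, 10 lower), 23.4%. CBX2, the Polycomb chromodomain protein, averaged 1.60 TPM in PEO1, 3.12 in PEO4 and 0.731 in PEO6 and was called in opposite directions there (1.07 ± 0.30 SE and −1.21 ± 0.45 SE, adjusted p = 0.00167 and 0.0198). PHF19, which brings Polycomb complex to its targets, fell in PEA2, PEO6 and OVCAR4 ResB and rose in OVCAR3 ResA. KDM6B, an H3K27 demethylase, rose in PEA2 and PEO4 and fell in OVCAR3 ResA, and WDR5, an MLL complex subunit, fell in OVCAR3 ResA and PEO6.

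Retinoic acid induces HOX genes from the anterior end of the clusters, and its pathway was called in 45 of 98 tested combinations (21 higher, 24 lower), 45.9% against 29.8% of all genes. CRABP2, a retinoic acid carrier, was at 117, 96.3 and 129.9 TPM in PEO1, 733, 741 and 773 in PEO4 (log2 fold change 2.75 ± 0.16 SE, adjusted p = 1.44e-63) and 1216, 1624 and 1647 in PEO6 (3.69 ± 0.21 SE, adjusted p = 4.31e-66). It rose in both selected OVCAR4 lines and fell in both selected OVCAR3 lines. STRA6, the retinol transporter, was at 46.9, 33.3 and 38.9 TPM in PEO1, 1.16, 1.06 and 0.485 in PEO4 (−5.51 ± 0.25 SE, adjusted p = 5.84e-105) and 0.577, 0.592 and 0.461 in PEO6 (−6.25 ± 0.29 SE, adjusted p = 3.2e-102). CDX and ParaHox genes were called in 2 of 7 tested combinations (28.6%, against 29.8% of all genes), CDX2 and PDX1 in OVCAR3 ResA, both under 1 TPM in all libraries.

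Transcripts of the HOX loci other than the members were called in 32 of 70 tested combinations (12 higher, 20 lower), 45.7% against 29.8% of all genes, for the 18 of 22 listed that had a row. HOTAIRM1, a non-coding RNA of the HOXA locus, was at 10.9, 25.5 and 6.58 TPM in PEA1 and 43.7, 65.4 and 59.7 in PEA2 (log2 fold change 2.16 ± 0.38 SE, adjusted p = 8.89e-08) and averaged 5.09 in PEO1 and 0.815 in PEO4 (−2.60 ± 0.51 SE, adjusted p = 2.31e-06). HOXA10-AS was called higher in OVCAR3 ResB and lower in OVCAR4 ResB, PEO4 and PEO6, as HOXA10 was, at 5.84, 8.24 and 13.1 TPM in OVCAR3 and 41.1, 41.0 and 22.7 in OVCAR3 ResB (1.91 ± 0.49 SE, adjusted p = 0.00216) and at 20.2, 34.4 and 25.8 in OVCAR4 and 9.14, 6.40 and 9.10 in OVCAR4 ResB (−2.27 ± 0.48 SE, adjusted p = 4.95e-05). It also rose in PEA2 (1.96 ± 0.42 SE), where HOXA10 was not called. Its reads and those of HOXA9 and HOXA10 cannot be told apart without strand.

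Genes that flank the clusters were called in 23 of 76 tested combinations (12 higher, 11 lower), 30.3%, close to the rate of all genes. SKAP2, beside the HOXA cluster, rose in PEA2 (log2 fold change 1.65 ± 0.22 SE) and fell in OVCAR3 ResA, PEO4 and PEO6, by 0.78, 0.57 and 0.87. KIAA1715, beside the HOXD cluster, rose in OVCAR3 ResA and in both selected OVCAR4 lines (0.70, 1.57 and 0.97) and fell in PEO6, by 0.66. In OVCAR3 ResA 4 of 8 tested HOXD genes were called lower while KIAA1715 rose, and in the OVCAR4 lines it rose beside a HOXD cluster with counts at or near 0.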

How the data were processed

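Poly(A) RNA of 11 lines was sequenced in 33 libraries. The authors ran the nf-core RNA-seq pipeline with salmon on GRCh38 and deposited 2 tables: expected counts per gene, which are not normalised, and TPM values per gene, which are scaled for transcript length and depth. Lines were grouped by the labels, and the sensitive or resistant role was taken from the study's text.

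Expected counts (88.4% whole as deposited) were rounded and tested with DESeq2 1.42.0 in R 4.3.3 (Wald test, replicate number as a block, 6 libraries per comparison, no filter before fitting). P-values were adjusted by Benjamini-Hochberg over the genes left by DESeq2's default filtering, 14993 to 21499 per comparison, with a call at 0.05. There were 16 comparisons: 7 resistant against sensitive, 3 between resistant lines and 6 between sensitive lines. Line sums and the family-by-resistance likelihood ratio test also used DESeq2. TPM gave levels. A line with 0 counts in all libraries was compared through a floor of 3 counts per library. Depth and the precision it gives are stated with the levels. The fits were tested on simulated data.

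Alternatives were edgeR 4.0.16 (quasi-likelihood), TMM size factors, a filter of 10 counts in 3 libraries, no replicate block, 1 fit of all 33 libraries, limma 3.58.1 on log2(TPM + 1) or log2(TPM + 0.1) with at least 1 TPM in 3 libraries or without that filter, and omission of each replicate number or family. Replicate numbers come from the labels, which do not say what they share. The correlation of deviations over genes exceeded 0.1 for all 3 pairs in 3 of 16 comparisons (OVCAR3 ResA with OVCAR3, OVCAR4 ResB with OVCAR4 ResA, PEO1 with PEA1).

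Members and lists were chosen with earlier results of these data known. Values per library are given for up to 3 called members with the largest increase and decrease in each resistant comparison (2 between resistant lines) with a mean of at least 1 TPM in either line, the highest member of each cluster and up to 2 members with most calls of each other list. Other members are named to complete a cluster and were chosen after their values were seen. Positions and promoters are from RefSeq tables on GRCh38.p14. The genome of another build was not used here. The values of 1 member are not reported here, and it enters only the counts and sums over members.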

Additional observations from a re-analysis of the deposited data

Results flagged for a closer look

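For 18 members the resistance effect differed between families by the likelihood ratio test of family by resistance (DESeq2, 33 libraries, adjusted over all genes tested), with a call higher in at least 1 family and lower in at least 1 other. The units of this test are libraries and not lines, so its p-values do not measure the spread between lines of a family. Over all genes the test called 53.6%. The share of all genes that also had calls in opposite directions was not computed, so the count of 18 has no background.

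In HOXA these were HOXA4 (adjusted p = 2.85e-08), HOXA10 (adjusted p = 0.0024) and HOXA13 (adjusted p = 2.27e-05). HOXA10 was called higher in OVCAR3 ResB and lower in OVCAR3 ResA, OVCAR4 ResB, PEO4 and PEO6, so the OVCAR3 family held calls in both directions. In HOXB they were HOXB4 (adjusted p = 6.5e-10), HOXB6 (adjusted p = 2.69e-13), HOXB7 (adjusted p = 0.000387), HOXB8 (adjusted p = 1.64e-32) and HOXB9 (adjusted p = 2.04e-77), with HOXB8 and HOXB9 higher in the PEA family and lower in the PEO and OVCAR4 families.

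In HOXC they were HOXC4 (adjusted p = 3.92e-05), HOXC8 (adjusted p = 1.9e-21), HOXC9 (adjusted p = 1.26e-22), HOXC10 (adjusted p = 1.67e-39), HOXC11 (adjusted p = 5.83e-36) and HOXC13 (adjusted p = 9.86e-31). HOXC9 and HOXC11 were called higher in the OVCAR3 family and lower in the PEO family. In HOXD they were HOXD1 (adjusted p = 0.000425), HOXD8 (adjusted p = 3.14e-08), HOXD9 (adjusted p = 0.00034) and HOXD11 (adjusted p = 1.38e-06), with HOXD8 higher in PEA2 and lower in the OVCAR3 and PEO families.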

How the results depend on the processing

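Of 191 alternative values of the counts of called HOX members, 137 stayed within 1.5 times the main count and 54 moved further. For the 48 single-gene results named by the rule, 402 of 514 alternative values kept the call, 112 lost it and 0 changed sign. The cause of the changes was not tested. With a replicate number left out, which leaves 2 libraries a line, the count ranged over 9 to 11 in OVCAR3 ResA (15 with all), 4 to 11 in OVCAR3 ResB (10), 0 to 14 in OVCAR4 ResA (4), 0 to 16 in OVCAR4 ResB (12), 8 to 13 in PEA2 (21), 1 to 9 in OVCAR3 ResB against OVCAR3 ResA (5), 3 to 5 between the selected OVCAR4 lines (8), 1 to 4 in PEO6 against PEO4 (4), 17 to 21 in OVCAR4 against OVCAR3 (27), 15 to 17 in PEA1 against OVCAR3 (23), 6 to 10 in PEA1 against OVCAR4 (17) and 0 to 1 at the level of lines (1). edgeR called 1 and 3 in OVCAR4 ResA and ResB, 2 between the selected OVCAR3 lines and 0 at the level of lines, where omitting the PEA family also left 0. limma on filtered values, at either pseudocount, called 0 in OVCAR4 ResA, 1 in OVCAR4 ResB, 13 in PEA2, 2 in OVCAR3 ResB against OVCAR3 ResA and 1 in PEO6 against PEO4, and on unfiltered values 0 in OVCAR3 ResB, OVCAR4 ResA and OVCAR4 ResB and 1 between the selected OVCAR3 lines and in PEO6 against PEO4. With all 33 libraries in 1 fit the count was 9 in OVCAR3 ResA (7 higher, 2 lower), 9 in OVCAR4 ResA, 8 in OVCAR3 ResB against OVCAR3 ResA, 4 between the selected OVCAR4 lines and 7 in PEO6 against PEO4.

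Without the replicate block the count was 7 in OVCAR4 ResA and 3 between the selected OVCAR4 lines, and it stayed within 1.5 times in the other comparisons, with 23 in PEO4, 18 in PEO6, 23 in PEA2, 11 in OVCAR3 ResA and 12 in OVCAR3 ResB. Low counts limit HOXD in OVCAR4 and HOXB1, HOXC12 and HOXD12 throughout, where differences were not detectable at this depth.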
